A study of Mus musculus with 2 samples.

Results

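Mir31, Mir203 and Mir205 are microRNA genes known from stratified and other squamous epithelia such as the epidermis, and they lie outside the miR-200 family that marks epithelial cells more widely. They are 3 of the 2202 annotated microRNA genes counted in adrenal glands. The glands came from males of the F1 hybrid B6CASTF1/J (C57BL/6J crossed with CAST/EiJ) at 36 days of age. The labels name no treatment and number the 2 libraries as biological replicates 1 and 2. The genes were found in both count files by their gene symbols. They were chosen by their role in epithelium with earlier results of these data in view, and selected on 1 measured value, the reads of Mir203 on both strands. Its counts on either strand are therefore a description. The labels list 1 donor record for both, so whether the libraries come from separate animals is not known. Their spread may be partly technical, and with 1 group there is no comparison between conditions.

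A microRNA gene is transcribed as a longer RNA that folds into a hairpin, and the hairpin is cut into 2 short strands, named 5p and 3p. Bases 2 to 8 of a short strand, the seed, pair with target messenger RNAs and lead to their repression. In skin, miR-203 is known to limit the proliferative potential of keratinocytes by repressing the transcription factor Trp63. miR-205 is known from basal and progenitor cells of stratified epithelia and represses the Zeb factors that oppose the epithelial state. miR-31 is known from keratinocytes, the hair follicle and squamous tumours. The adrenal gland itself is made of steroid-producing cortex and neuroendocrine medulla inside a connective tissue capsule, with no squamous epithelium of its own.

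The mature sequences show which short RNAs the counts of each gene can hold, with the seed in capitals. They are from RefSeq (build GRCm38.p6), in which all 3 genes were found.
mmu-miR-31-5p: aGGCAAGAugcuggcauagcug
mmu-miR-31-3p: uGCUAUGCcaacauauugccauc
mmu-miR-203-5p: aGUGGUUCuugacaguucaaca
mmu-miR-203-3p: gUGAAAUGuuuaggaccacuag
mmu-miR-205-5p: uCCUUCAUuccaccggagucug
mmu-miR-205-3p: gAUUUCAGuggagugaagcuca

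None of these 6 seeds was shared among the 3 genes or with any other of the 1738 mature entries of that table. None of the 6 mature sequences was found in another of its 1005 hairpins. In that table the 3 genes therefore share neither a seed nor a copy. Multimapping reads are left out of the gene counts, and in these hairpins no second copy was found that would remove reads of the 3 genes. The counts are per hairpin gene, so the 5p and 3p strands cannot be told apart in them.

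The 3 genes lie on 3 chromosomes of mm10. Mir31 (ENSMUSG00000065408.1) is on the minus strand of chromosome 4 from 88910557 to 88910662, overlapping an exon of the long noncoding RNA gene AL805899.1 on the same strand. Mir203 (ENSMUSG00000065574.1) is on the plus strand of chromosome 12 from 112130880 to 112130955, between genes, 3321 bp beyond the coding gene Aspg. Mir205 (ENSMUSG00000065533.1) is on the minus strand of chromosome 1 from 193507463 to 193507530, overlapping an exon of the long noncoding RNA gene 4631405K08Rik on the same strand. In GENCODE M21, the annotation used for counting, no other microRNA gene lies within 10 kb of any of them.

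Replicate 1 held 4494857 counts on the sense strand of microRNA genes, 36.6% of its reads, and replicate 2 held 2078824, 20.1% of its reads. Reads that did not map took 26.4% and 51.9% of the reads, and multimapping reads took 29.8% and 21.5%. Levels below are CPM, the sense counts of a gene scaled to a library total of 1000000, with exact Clopper-Pearson 95% intervals that cover counting error only. The reads are of small RNAs, so counts were not divided by hairpin length. How readily each microRNA enters a library was not measured, which limits comparisons of level between genes.

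Mir203 was counted at a similar level in both libraries, whereas Mir31 was low in replicate 1 and high in replicate 2, and Mir205 was rare in both. Mir203 had 6971 counts in replicate 1, equal to 1551 CPM (1515 to 1588), and 2561 counts in replicate 2, equal to 1232 CPM (1185 to 1281). Its mean was 1391 ± 226 CPM (SD, n = 2). It ranked 57th in replicate 1 and 77th in replicate 2 among the 2202 genes.

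Mir31 had 489 counts in replicate 1, equal to 109 CPM (99.4 to 119), and 2891 counts in replicate 2, equal to 1391 CPM (1340 to 1442). Its rank was 183 in replicate 1 and 73 in replicate 2. The mean of 750 ± 906 CPM (SD, n = 2) describes neither library, since the SD exceeds the mean. Leaving out either library moves that mean to the level of the other.

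Mir205 had 14 counts in replicate 1, equal to 3.11 CPM (1.70 to 5.23), and 20 counts in replicate 2, equal to 9.62 CPM (5.88 to 14.9). Its mean was 6.37 ± 4.60 CPM (SD, n = 2). Both values lie above the levels that a count of 0 allows, which are 3 counts, or 0.667 CPM for replicate 1 and 1.44 CPM for replicate 2.

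**Figure D1:**
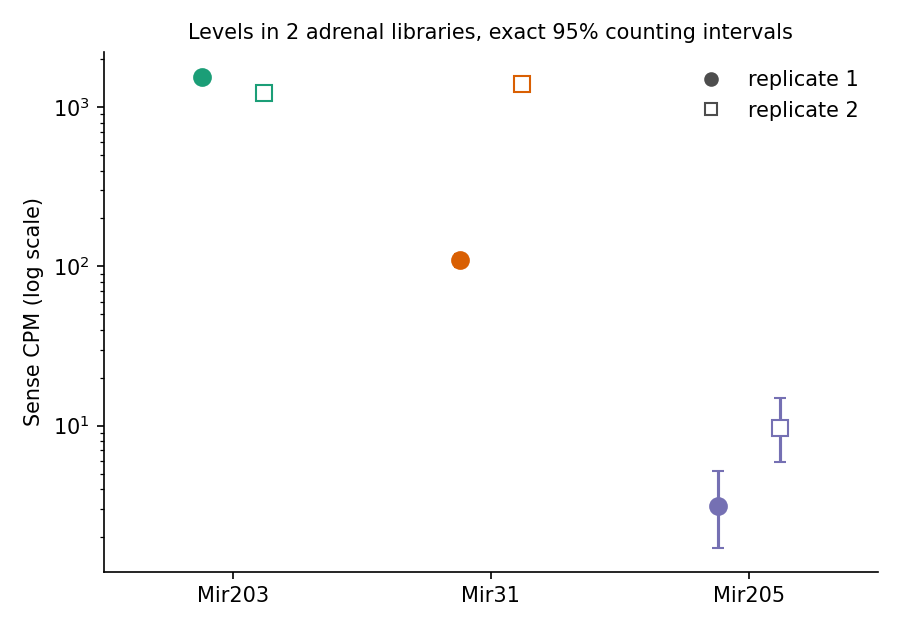
Sense CPM (log axis) of Mir203, Mir31 and Mir205 in replicate 1 (filled circles) and replicate 2 (open squares), with exact 95% counting intervals, which are smaller than the symbols for Mir203 and Mir31. Mir203 stands at 1551 and 1232 CPM, Mir31 at 109 and 1391 CPM, and Mir205 at 3.11 and 9.62 CPM.

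The order of the 3 genes was not the same in both libraries. In replicate 1 Mir203 stood 14.3-fold above Mir31, and in replicate 2 the ratio of Mir203 to Mir31 was 0.886. These ratios within a library do not depend on scaling. By their means Mir203 and Mir31 do not differ beyond the spread between libraries. Mir205 was lowest in both libraries, with Mir203 at 498 and 128 times its level. Together the 3 genes took 0.166% of the gene counts of replicate 1, of which Mir203 made up 93.3%. In replicate 2 they took 0.263%, of which Mir31 made up 52.8% and Mir203 46.8%.

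The genes nearest to each member by level were found by Euclidean distance of log2(CPM + 1) over the 2 libraries. This distance depends on the level as well as on the difference between libraries, so it does not show how common that difference was. Mir203 had close neighbours, led by Mir431 at a distance of 0.07 (1542 and 1294 CPM), then Mir15a at 0.18 and Mir181c at 0.24. Mir205 was near the low genes Mir7083 at 0.40, Mir582 at 0.46 and Mir5126 at 0.51. Mir31 had none as near. Its nearest gene was Mir574 at 0.65 (164 and 1140 CPM), followed by Mir298 at 1.30 and Mir500 at 1.57.

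Ratios of replicate 2 to replicate 1 were taken with TMM scaling by edgeR, which sets a library's size by the bulk of its genes. They cover the 333 genes that reached 10 counts in both libraries. With 1 library on each side they have counting intervals but no replicate error and no p-value, and they compare these 2 libraries only. Genes more than 4-fold apart made up 6.01% of the 333 genes, 20 in all, and those over 4-fold higher in replicate 2 made up 4.50%, or 15 genes. Of the 3 members, 1 was among these 15, and none was over 4-fold higher in replicate 1.

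Mir31 was that member. It was 11.2-fold higher in replicate 2 (counting interval 10.2 to 12.4), a log2 ratio of 3.49. It ranked sixth of the 333 genes toward replicate 2, directly after the 5 genes of the miR-200 family. Mir30b and Mir193b followed closely, at log2 ratios of 3.44 and 3.38. Neither is on a marker list used below, and both were named after their values were seen. Genes under 10 counts in a library, such as Mir217 with 0 and 530 counts, were not ranked. Mir203 was 1.43-fold higher in replicate 1 (1.37 to 1.50), a log2 ratio of -0.52. That counting interval leaves out equal levels. The difference is still small for these libraries, since 201 of the 333 genes were at least as far from equal. Mir205 had a log2 ratio of 1.44, or 2.72-fold higher in replicate 2, with a wide counting interval of 1.31 to 5.81 that rests on 34 counts in all.

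**Figure D2:**
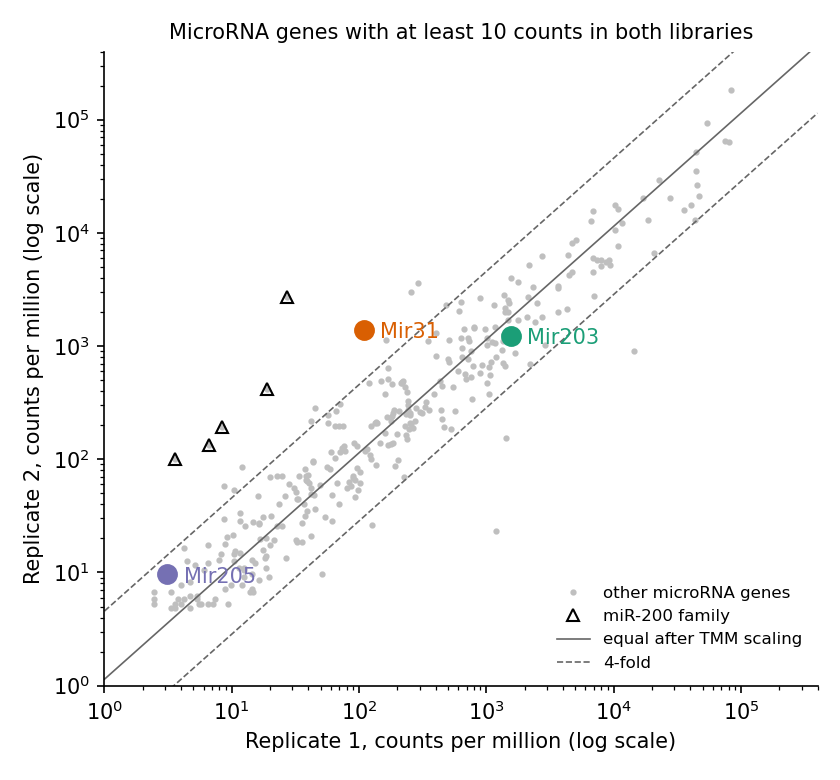
CPM in replicate 1 (x axis) and replicate 2 (y axis), both on log axes, for the 333 genes that reached 10 counts in both, with the line of equal level after TMM scaling and lines 4-fold above and below it. Mir31 and the 5 miR-200 genes (triangles) are among the 15 genes above the upper line, and Mir203 and Mir205 lie between the lines.

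Other epithelial microRNAs did not all go the way of Mir31. All 5 miR-200 genes, which keep epithelial cells from losing their identity by repressing Zeb factors, were over 4-fold higher in replicate 2, with a median log2 ratio of 4.32 against 0.01 over all 333 genes. Their summed level was 64.7 CPM in replicate 1 and 3576 CPM in replicate 2. Mir200c had 122 and 5683 counts (log2 ratio 6.47), Mir200b 85 and 865 (4.27) and Mir429 38 and 399 (4.32). In replicate 1, Mir31 and Mir203 each stood above every miR-200 gene. In replicate 2, Mir200c at 2734 CPM stood above both.

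Genes of surface and sensory epithelium stayed within 4-fold between the libraries, as did Mir203. Mir205 did so by its ratio, but its counting interval of 1.31 to 5.81 reaches past 4-fold. Of the 4 listed genes of surface and sensory epithelium none was over 4-fold apart, with a median log2 ratio of -0.24. Mir182, of the sensory cluster that also holds Mir183 and Mir96, had 756 and 538 CPM (log2 ratio -0.68). Mir183 had 89.0 and 68.8 CPM (-0.56), and Mir184, known from the cornea and lens, had 41.6 and 49.5 CPM (0.07). Mir96, of the same cluster as Mir182, stood on the side of Mir31, at 6.45 and 17.3 CPM (log2 ratio 1.24, counting interval 0.49 to 2.00). The list of multiciliated epithelium had 3 measured genes of 5, none over 4-fold apart. Its highest gene, Mir34c, had 605 and 2029 CPM (log2 ratio 1.56), while Mir449a had 86.1 and 57.7 CPM (-0.76) and Mir34b 59.2 and 81.3 CPM (0.27).

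**Figure D3:**
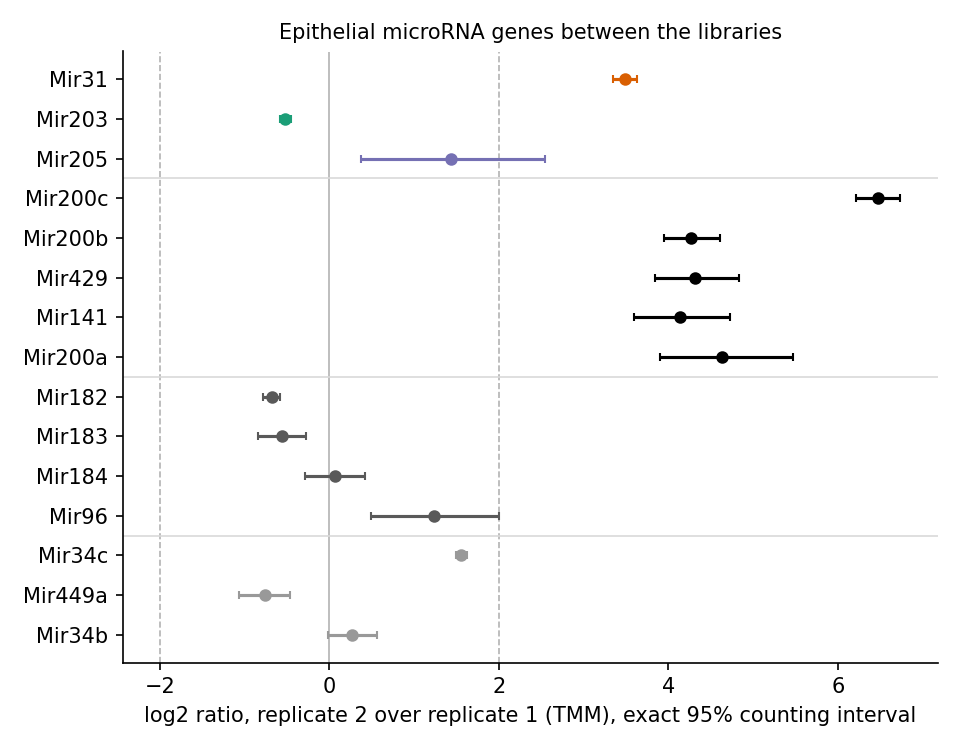
Log2 ratios of replicate 2 over replicate 1 after TMM scaling (x axis), with exact 95% counting intervals, for the 3 members (top), the miR-200 family, genes of surface and sensory epithelium and genes of multiciliated epithelium. The dashed lines mark 4-fold, and Mir31 at 3.49 and the miR-200 genes from 4.14 to 6.47 lie past it.

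Markers of other tissues also differed between the libraries in which Mir31 differed. All 3 acinar genes of the pancreas had 0 counts in replicate 1. Mir217, Mir216b and Mir216a had 530, 91 and 56 counts in replicate 2, a summed level of 326 CPM. Of the 749 genes with a count in either library, 696 had a count in replicate 1. The erythroid genes Mir451a, Mir144 and Mir486 summed to 15841 CPM in replicate 1 against 1091 CPM in replicate 2. Of these 3, 2 were over 4-fold higher in replicate 1. Over all 333 genes with a ratio, 20 were over 4-fold apart in either direction, and 15 of those were higher in replicate 2. The part of these tissues, and of the larger unmapped share of replicate 2, in the Mir31 difference was not tested. In whole glands, more cells of a type cannot be told apart from more of the microRNA per cell.

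In the other marker lists none of the measured genes was over 4-fold apart, and sums led by 1 gene did not show the direction of the rest. The kidney and gut list summed to 47322 and 21415 CPM in replicates 1 and 2, nearly all of it Mir10a at 47186 and 21092 CPM. Its other 3 measured genes stood higher in replicate 2, among them Mir204 at 57.0 and 207 CPM and Mir192 at 42.3 and 56.3 CPM. The log2 counting interval of Mir192, -0.12 to 0.57, includes equal levels. The genes of the list with too few counts for a ratio stood lower in replicate 2, at 4.89 and 2.41 CPM and at 1.33 and 0 CPM. The median log2 ratio of the measured genes was 0.46. The neuroendocrine list, known from endocrine cells, summed to 48802 and 54157 CPM, with Mir375 at 44147 and 51780 CPM. Its other 3 genes stood lower in replicate 2, among them Mir7b at 4326 and 2129 CPM and Mir7-1 at 233 and 165 CPM, and the median log2 ratio was -0.54. Of the smooth muscle and pericyte genes, Mir143 had 45047 and 26223 CPM and Mir145a had 1564 and 3998 CPM, so they differed in opposite directions.

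Endothelial genes (Mir126a and Mir126b) summed to 74842 and 64797 CPM, with a median log2 ratio of -0.31, and the liver gene Mir122 stood at 1383 and 2842 CPM. Leukocyte genes summed to 1740 and 1891 CPM, with a median log2 ratio of -0.54. Among them Mir150 stood at 734 and 1104 CPM, and the other 3, led by Mir142 and Mir155, had log2 ratios from -0.56 to -0.52. Fibroblast genes (Mir214, Mir199b and Mir199a-2 highest) summed to 1215 and 1525 CPM, with a median log2 ratio of 0.14. Skeletal and heart muscle genes (Mir499, Mir206 and Mir208a highest) summed to 4.67 and 10.1 CPM, with 5 of the 9 listed genes at 0 in both libraries, and none had 10 counts in both. These lists do not define the adrenal cortex, so the labelled tissue was not checked against cortex markers.

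Mir203 stood apart from the other members in its strands. On the strand opposite to the annotated gene it had 407 counts in replicate 1 and 259 in replicate 2, equal to 90.5 and 125 CPM of the sense total. The antisense share of its stranded counts was 5.52% (5.01 to 6.06) in replicate 1 and 9.18% (8.14 to 10.3) in replicate 2, a mean of 7.35% ± 2.59 (SD, n = 2). The intervals of the 2 libraries do not overlap, and the shares do not depend on scaling. Sense counts outnumbered antisense counts 17.1 to 1 in replicate 1 and 9.89 to 1 in replicate 2.

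Mir31 and Mir205 had no antisense count in either library. For Mir31, with 0 of 489 counts in replicate 1 and 0 of 2891 in replicate 2, the exact intervals reach 0.752% and 0.128%. Both lie below the share of Mir203. For Mir205, with 0 of 14 and 0 of 20 counts, the intervals reach 23.2% and 16.8%. A share like that of Mir203 was therefore not detectable at this depth.

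RefSeq annotates a second microRNA gene on the opposite strand of Mir203 that the annotation used for counting, GENCODE M21, does not hold. It is Gm51289, with the synonym Mir203b, on the minus strand of chromosome 12 from 112130887 to 112130946. Both hairpins are shown with their 5p and 3p arms in capitals, because they are read from the 2 strands of the same DNA.
Mir203 hairpin: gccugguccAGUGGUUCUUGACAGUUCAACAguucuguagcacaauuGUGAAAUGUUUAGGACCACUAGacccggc
Mir203b hairpin: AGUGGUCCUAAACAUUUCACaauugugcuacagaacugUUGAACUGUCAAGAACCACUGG

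The 60 bases of the Mir203b hairpin are contained in the reverse complement of the Mir203 hairpin. All 20 bases of miR-203b-5p are complementary to miR-203-3p in 1 run, and miR-203b-3p overlaps miR-203-5p over 20 bases on the other strand. The opposite-strand mature sequences are shown with the seed in capitals, for comparison with those of Mir203.
mmu-miR-203b-5p: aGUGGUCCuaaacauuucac
mmu-miR-203b-3p: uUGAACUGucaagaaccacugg

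The 5p strands of the 2 hairpins differ at 1 of 7 seed bases, and at 5 of the first 20 bases. The 3p strands also differ at 1 of 7 seed bases. Neither seed of Mir203b was found in another mature entry. The folding energy predicted by RNAfold was -35.1 kcal/mol for the Mir203 hairpin and -32.4 kcal/mol for its whole reverse complement of 76 bases. The annotated Mir203b hairpin, the 60 bases within it, was predicted at -15.4 kcal/mol. The reverse complements of the other hairpins were also predicted to fold, at -46.4 against -48.7 kcal/mol for Mir31 and -24.7 against -33.8 kcal/mol for Mir205, so a predicted fold does not set Mir203 apart. The counts do not show whether the antisense reads have the ends of miR-203b-5p or miR-203b-3p.

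Antisense counts were rare elsewhere. Among 304 genes with at least 10 stranded counts in both libraries and no microRNA gene on the opposite strand in GENCODE M21, 286 had no antisense count in either library. Mir203 was the 1 gene with at least 10 antisense counts in both libraries, 0.329% of these genes. It was also the 1 gene of the 304 with a hairpin on the opposite strand in the RefSeq table. It held 87.9% of the antisense counts of these genes in replicate 1 and 92.8% in replicate 2. Pooled over the other 303 genes the antisense share was 0.00152% and 0.00120%.

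The next genes by antisense share rest on few counts. Mir200a had 2 antisense counts beside 16 sense counts in replicate 1 and none beside 209 in replicate 2. Mir3086 had 1 beside 16 in replicate 1 and none beside 10 in replicate 2. Among the 31 of these genes with sense counts within 2-fold of those of Mir203 in both libraries, the highest antisense counts were 25 in replicate 1 and 4 in replicate 2, those of Mir708, a gene named after its values were seen, which had 7546 and 1804 sense counts.

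**Figure D4:**
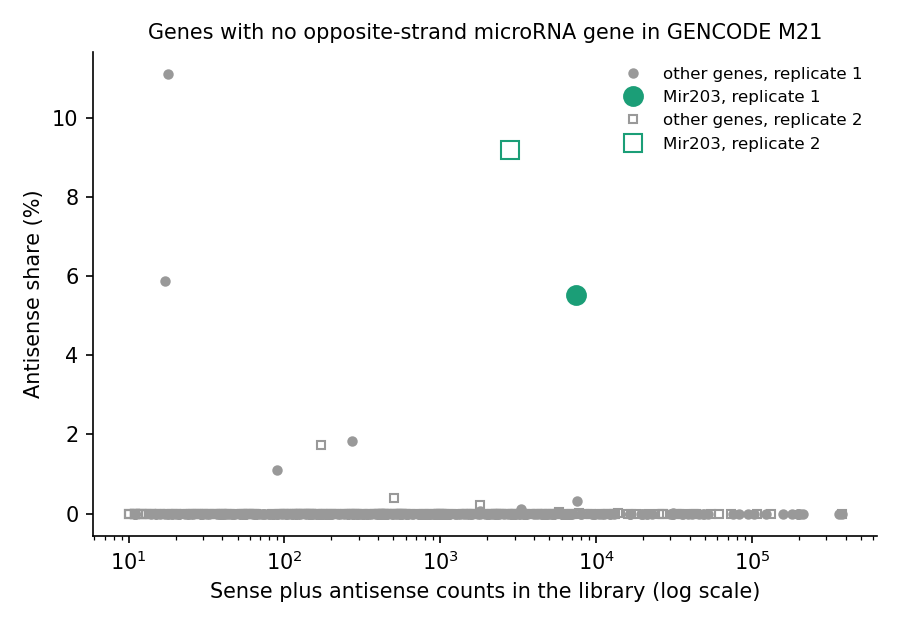
Antisense share of stranded counts in percent (y axis) against the stranded counts of a gene in a library (x axis, log scale), for the 304 genes with no opposite-strand microRNA gene in GENCODE M21, in replicate 1 (filled circles) and replicate 2 (open squares). Mir203 stands at 5.52% and 9.18%, and the other points above 5% are Mir200a and Mir3086 in replicate 1, with 2 and 1 antisense counts.

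Some microRNA genes annotated on both strands were also counted on both. Of 25 such overlapping pairs compared, 4 had at least 10 counts on each strand in both libraries. The share of the less counted strand was 24.3% and 16.5% in replicates 1 and 2 for Mir24-1 with Mir3074-1. Each gene of that pair has a further numbered copy and uncertain counts. The share was 3.06% and 4.80% for Mir338 with Mir3065, 1.35% and 4.05% for Mir337 with Mir3544, and 0.0152% and 0.0171% for Mir126a with Mir126b. Mir203, at 5.52% and 9.18%, lay above the last 3 pairs in both libraries and below the uncertain pair of Mir24-1. These pairs were named after their values were seen.

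The strands of Mir203 also bear on how its level is read. For genes annotated on both strands, the column that ignores strand loses the reads as ambiguous, but for Mir203 it adds the strands together, 7378 counts in replicate 1 and 2820 in replicate 2. In that column Mir203 stood at 1838 CPM, against 1391 CPM on the sense strand. That rise also holds the smaller gene total of the strand-blind column, since Mir31, with no antisense counts, moved from 750 to 928 CPM.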

How the data were processed

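MicroRNA-seq was analysed from 2 adrenal libraries, grouped as 2 biological replicates by the labels. The deposited tables give unnormalized read counts for each microRNA gene, strand-blind and for each strand, for mm10 and GENCODE M21, per the text deposited with them. Which aligner and counter made them is not given in the sources used here. GENCODE M21 held all 2202 gene identifiers. Of the stranded columns, the one that gave genes more counts (in both libraries) served as sense. Rows for reads that name no gene were left out of totals. Members and lists were chosen with earlier results of these data known.

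CPM is the sense count scaled to 1000000 over all genes. Ratios used TMM on genes that reached 10 counts in both, with exact Clopper-Pearson counting intervals, and a rule of 4-fold. No p-value was computed, since there is 1 group. Other scalings, count minimums, the strand-blind column and single libraries were tried as alternatives. Whether CAST/EiJ alleles affect mapping was not tested. Named genes were the members, the 3 nearest genes to each, the 3 highest genes of each list, genes that share a seed and those with the 3 highest antisense shares. Mature and hairpin sequences are from RefSeq (GRCm38.p6). The ratio step was tested on simulated data with 200 changed genes. The software was R 4.3.3, edgeR 4.0.16, DESeq2 1.42.0, Python 3.11.15, NumPy 2.4.6, SciPy 1.17.1, pandas 2.3.3, matplotlib 3.10.9 and ViennaRNA 2.7.2.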

Additional observations from a re-analysis of the deposited data

How the results depend on the processing

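Of 39 recomputed values, 33 moved by less than the spread between libraries or the counting interval, or by less than 1.5 times for the count of genes, and none changed direction. The 33 include every value with 1 library left out. With 2 libraries such a value always moves by less than their SD, so this outcome was fixed in advance. Library size alone shifts the median log2 ratio of all genes from 0.01 to 0.19. It gave log2 ratios of 3.68 for Mir31 and -0.33 for Mir203, and TMM over all genes with any count gave 3.32 and -0.69. Mir203 stood at 1838 CPM in the strand-blind column. With a minimum of 50 counts, 13 genes were over 4-fold apart in place of 20, and Mir205, with too few counts, has no value. Leaving out a library gave 109 to 1391 CPM for Mir31, 1232 to 1551 CPM for Mir203, 3.11 to 9.62 CPM for Mir205 and 5.52% to 9.18% for the antisense share of Mir203. No paired analysis was possible because there is 1 group.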
